A study of Mus musculus with 35 samples.

Results

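Microglia and endothelial cells sorted from the same E14.5 mouse brains were compared directly with each other by bulk RNA-seq. The comparison used 6 libraries, 3 of microglia and 3 of endothelial cells, out of 12 bulk libraries and 35 samples in the series. The libraries were picked by their labels, and the comparison was chosen with earlier results of these data known. All came from wild-type embryos, and no treatment is named for them. The microglia libraries are Mi-340, Mi-343 and Mi-346 and the endothelial libraries Ec-340, Ec-343 and Ec-346, where the number names the brain. Microglia were sorted as cells with a medium level of CD45 that carried CD11b but neither PECAM1 nor PDGFRβ. Endothelial cells were sorted as PECAM1+ and CD102+ cells without CD45, CD41, CD11b or PDGFRβ. The wider study also sorted neural and mural cells from these brains, used here only for their levels, and sequenced single cells, which were not analysed here. The RNA of both populations was extracted with the same column kit and amplified with the same SMART-Seq kit. The 3 brains are the replicates, and levels given as a run of 3 are normalized counts in the order of the libraries above.

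Microglia are the resident macrophages of the brain. They descend from yolk sac progenitors, depend on the receptor CSF1R for survival, and engulf dying cells and debris. Brain endothelial cells line the vessels that grow into the neural tube under VEGF and Wnt signals and build the blood-brain barrier from tight junctions and selective transporters. Both cell types have blood-forming relatives in early development and share some regulators of the ETS, TAL and LMO families.

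The endothelial libraries held 17638358, 21088739 and 20627492 reads on genes and the microglia libraries 29619163, 27227000 and 24464777. One read was therefore worth 1.42 to 1.77 normalized counts in endothelial cells and 1.19 to 1.26 in microglia. Across genes, log2 levels correlated at 0.892 to 0.919 between microglia libraries, at 0.815 to 0.843 between endothelial libraries and at 0.566 to 0.647 between the populations (Pearson, genes are not independent replicates). The median SD of a gene on the log2 scale was 0.462 in microglia and 0.668 in endothelial cells. Microglia libraries had 21942 ± 1471 genes above 0 and endothelial libraries 20278 ± 306 (SD, n = 3), a difference of 1664 with p = 0.2 in an exact two-sided permutation test whose smallest possible p is 0.1. The difference was 915.2 without Mi-346 and 2385.7 without Mi-340, and 603.3 for genes of at least 10 normalized counts.

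The genes of the proteins used for sorting were read first, as a check of the labels and not as a finding. *Ptprc*, the gene of CD45, had 12081, 16626 and 24568 in microglia and 0, 7.10 and 0 in endothelial cells. *Itgam*, which encodes CD11b, had 3741, 3614 and 6924 in microglia and 0 in every endothelial library. *Pecam1* had 1027, 457 and 835 in microglia and 24233, 20178 and 16791 in endothelial cells. These 3 genes followed the gates in every library. *Icam2*, the gene of CD102, had 197, 307 and 383 in microglia and 4410.3, 4268 and 4351 in endothelial cells. *Itga2b*, the gene of CD41, overlapped between the populations at 214, 236 and 144 in microglia and 221, 256 and 416 in endothelial cells. *Pdgfrb*, on which both gates were negative, had 23.8, 34.4 and 51.6 in microglia and 0, 0 and 16.6 in endothelial cells and was not called (adjusted p = 0.084, or 0.013 without Ec-346).

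Of 19151 genes tested, 1413 were more than 10-fold higher in microglia (7.38%) and 1311 were more than 10-fold higher in endothelial cells (6.85%), at an adjusted p under 0.05. The test was limma on log2(normalized count + 1), a scale that understates the change of low genes, with Benjamini-Hochberg adjustment over all genes tested. Differences are microglia minus endothelial cells, so positive values are higher in microglia, and the value after ± is the SE. Without a minimum fold, 2551 genes were higher in microglia (13.3%) and 2324 in endothelial cells (12.1%), and these shares are the background for the count of every gene list. The median difference over all genes was 0.07 on the log2 scale. Of the 1413 microglia genes 1078 were protein-coding, and of the 1311 endothelial genes 1000. No read of 555 of the microglia genes was found in the endothelial libraries, and no read of 293 of the endothelial genes in the microglia libraries, so these passed the minimum of 10 through one population alone. Without Mi-343 and Ec-343 the counts over 10-fold were 889 and 762. In bulk RNA, fewer cells of a type and less RNA per cell cannot be told apart, which holds for every low value of one population in the other.

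**Figure D1:**
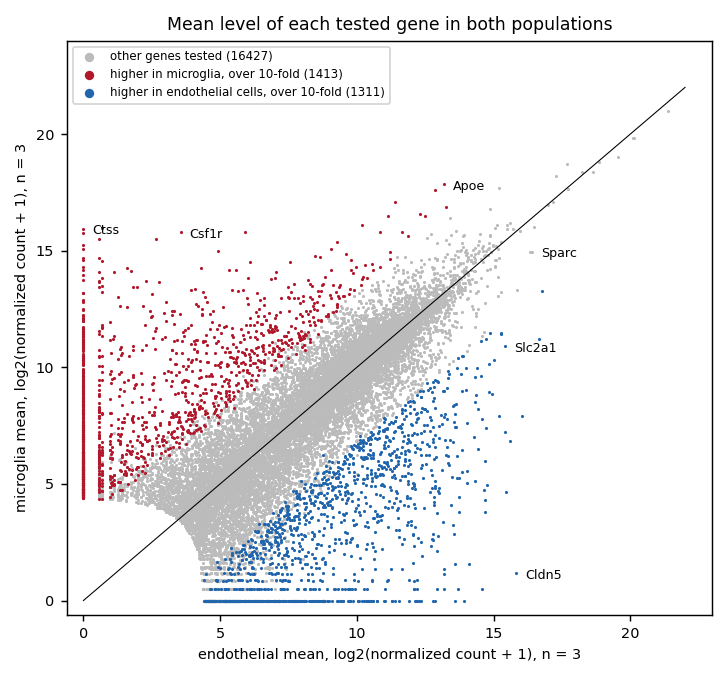
Mean log2(normalized count + 1) of each of 19151 tested genes in endothelial cells (horizontal axis) and microglia (vertical axis), n = 3 each, with equal levels on the line. The 1413 genes over 10-fold higher in microglia lie above the line and the 1311 higher in endothelial cells below it, and columns of points at the left and bottom edges are genes with 0 to a few reads in one population.

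The mural and neural libraries of the same brains give a further view of these genes, as levels only. The mural mean was more than 10 times below the microglia mean for 949 of the 1413 microglia genes, and more than 10 times below the endothelial mean for 489 of the 1311 endothelial genes. The mural mean was at least as high as the endothelial mean for 262 of the endothelial genes, and at least as high as the microglia mean for 100 of the microglia genes. The neural libraries were made with another kit, and their mean was at least as high for 163 and 235 genes.

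The 12 microglia genes with the largest differences encode proteins of phagocytes. *Ctss*, a lysosomal cysteine protease (ENSMUSG00000038642, GRCm38 chr3:95526786-95556403), had 56095, 58070 and 74613 in microglia and 0 in every endothelial library, which makes it at least 13390-fold higher in microglia against 3 reads per library. *Fcrls*, an Fc receptor-like protein used as a microglia marker, had 50478, 49842 and 65668 in microglia and 0 in every endothelial library, at least 11773-fold. *C1qb*, one of the chains of C1q, which starts the classical complement pathway, had 61822, 61671 and 68854 in microglia and 1.77, 0 and 0 in endothelial cells. The chain genes *C1qc* and *C1qa* also had 1 read in 1 endothelial library each, beside 47104, 47442 and 45316 normalized counts in microglia for *C1qc* and 24762, 21778 and 26814 for *C1qa*. The chemokine gene *Ccl4* had 34194, 32058 and 48355 in microglia and 0 in every endothelial library, and its neighbour *Ccl3* had 16334, 16738 and 22326 in microglia and 0 in every endothelial library. The rest were *Mpeg1*, which encodes the pore-forming perforin-2, *Plek*, a protein kinase C substrate of leukocytes, the IgG receptor gene *Fcgr3*, the endolysosomal nuclease gene *Pld4* and the lysozyme gene *Lyz2*. *Lyz2* varied most among the 12, at 12220.5, 15769.5 and 31762 in microglia, with Mi-346 highest. The 12 log2 differences ran from 14.08 to 15.93, with adjusted p from 4.5e-06 to 1.0e-05 in limma. Genes without a read in the other population passed the filter through one population alone. Their log2 difference and p depend on the 1 added before the log, and their fold is known only as the bound against 3 reads per library.

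The 12 endothelial genes with the largest differences belong mostly to junctions, transport, receptors and matrix. *Cldn5*, the main claudin of the blood-brain barrier (ENSMUSG00000041378, chr16:18776847-18778262), had 57543, 51368 and 64664 in endothelial cells against 0, 0 and 3.78 in microglia (-15.06 ± 0.65, adjusted p = 1.4e-05). *Slc38a5*, a glutamine transporter, had 18883, 28184 and 26324 in endothelial cells against 0, 1.19 and 0 in microglia. The thyroid hormone and organic anion transporter gene *Slco1c1* had 6948, 5776 and 8455 in endothelial cells against 0 in every microglia library, at least 1943-fold. All 3 carry or seal at the vessel wall. The SoxF transcription factor gene *Sox17* had 5023, 10730 and 6648 in endothelial cells against 0 in every microglia library, at least 2055-fold. *Tek*, which encodes the angiopoietin receptor TIE2, had 7483, 11566 and 8755 in endothelial cells against 1.19, 0 and 0 in microglia. *Ptprb*, which encodes the phosphatase VE-PTP that acts on TIE2, had 12285, 16952 and 10993 in endothelial cells against 1.19, 0 and 0 in microglia. Microglia thus had 0 reads or 1 read in each of these 3. The adhesion receptor gene *Adgrf5* had 14436, 19339 and 12968 in endothelial cells against 0 in every microglia library. *AU021092*, a gene without an assigned name, had 11036, 11939 and 13696 in endothelial cells against 0 in every microglia library. *Vwa1* and *Nid1* of the matrix, the gap junction gene *Gja4* and *Cgnl1*, a cingulin-like protein of tight junctions, completed the 12, whose log2 differences ran from -12.34 to -15.06. The 12 in each direction were taken from genes called over 10-fold whose groups did not overlap. Their mean in the higher population was at least 1000 normalized counts. That every endothelial library lay above every microglia library was therefore set by the choice.

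**Figure D2:**
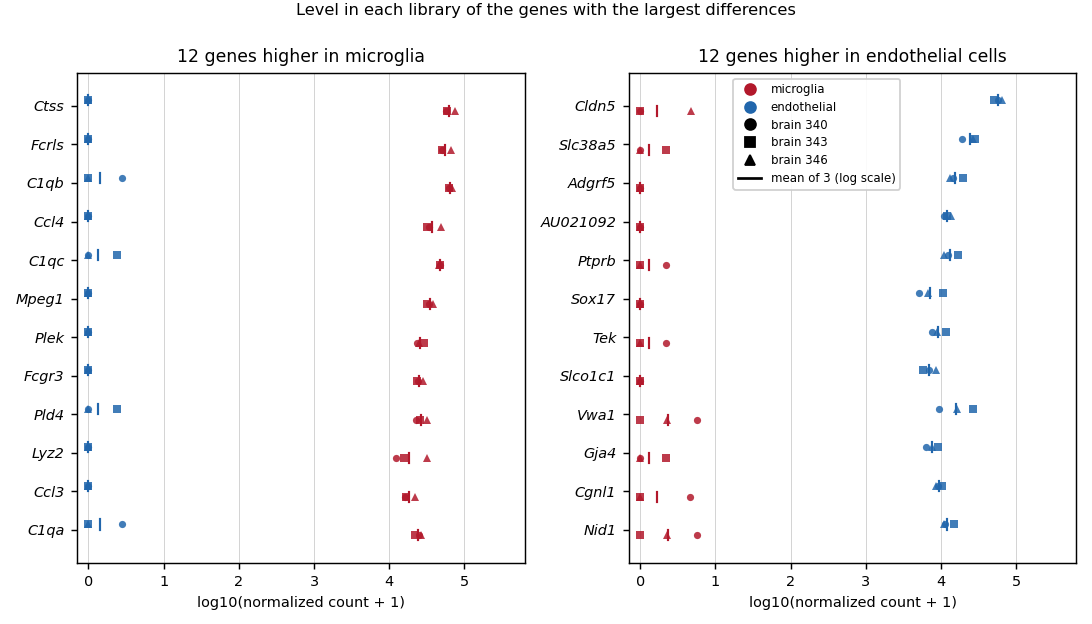
Level of the 12 genes with the largest differences in each direction, as log10(normalized count + 1), in the 3 microglia and 3 endothelial libraries, with a bar at the mean of the 3 log values. The lowest microglia value of a microglia gene is 12220.5 and the lowest endothelial value of an endothelial gene 5023, while the other population has at most 4.75 normalized counts.

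At the other end, 10 genes with at least 1000 normalized counts in both populations were taken for having the 95% interval of the difference that reached least far from 0. They were *Srrm2*, *Tmed10*, *Atp5b*, *Jpt1*, *Rps18*, *Tpm3*, *Ddx6*, *Ran*, *Rpl14* and *Sfpq*, with roles in splicing, trafficking, ATP synthesis, the ribosome, actin filaments and nuclear transport. The splicing factor gene *Srrm2* had 25999, 32719 and 26853 in microglia and 31854, 26255 and 27917 in endothelial cells, a log2 difference of -0.01 with a 95% interval of -0.32 to 0.29. The farthest bound of the interval, by which the 10 were chosen, was 0.315 to 0.365 from 0.

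The transcription factors split by lineage. Both lists were built from factors known from these lineages, so their direction is not independent evidence. Of 20 myeloid factors tested, 17 were higher in microglia, against a background of 13.3%, and their median log2 difference was 6.34 (5.96 with genes at 0 reads set to their bound), beside 0.07 over all genes. *Spi1* encodes PU.1, the ETS factor that macrophages need to form, and had 14731, 13943 and 9841 in microglia and 0, 1.42 and 0 in endothelial cells (13.201 ± 0.56, adjusted p = 1.4e-05). *Ikzf1*, which encodes the lymphoid and myeloid factor Ikaros, had 6413, 6507 and 5959 in microglia and 10.6, 0 and 0 in endothelial cells (11.44 ± 0.98, adjusted p = 2.2e-04). *Cebpa*, a factor of granulocytes and macrophages, had 2463, 3103 and 2649 in microglia and 0, 0 and 1.51 in endothelial cells (10.97 ± 0.65, adjusted p = 4.6e-05). All 3 were nearly absent from the endothelial libraries. *Runx1*, a regulator of blood formation, had 4652, 5222 and 6272 in microglia and 76.2, 0 and 0 in endothelial cells, with the endothelial reads in Ec-340 (10.29 ± 1.61, adjusted p = 0.0032). The call was lost without Mi-343 and Ec-343 or without Mi-346 and Ec-346. *Sall1*, which marks microglia among macrophages and was named after its values were seen, had 3449, 4358 and 2840.2 in microglia and 72.6, 0 and 16.6 in endothelial cells (8.33 ± 1.41, adjusted p = 0.0047). *Smad3*, a transducer of TGF-β, went the other way at 857, 1040.0 and 972 in microglia and 1962, 1540.2 and 1872 in endothelial cells (-0.901 ± 0.23, adjusted p = 0.024). With the brain as a block its adjusted p was 0.076, and the call was lost without Mi-340, Mi-343, Mi-346 or Ec-346 (highest adjusted p 0.066). *Tal1* and *Nr1h3* were not called.

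Of 20 endothelial factors tested, 16 were higher in endothelial cells, against a background of 12.1%, with a median of -8.33 (-8.23 with genes at 0 reads set to their bound). The SoxF gene *Sox7* had 3645, 6811 and 5342 in endothelial cells against 0 in every microglia library, at least 1449-fold, and *Sox17* is given above. *Foxq1*, a forkhead factor of brain vessels, had 4270.3, 5043 and 3861 in endothelial cells against 1.19, 0 and 0 in microglia (-11.72 ± 0.598, adjusted p = 2.6e-05). *Mecom* had 2863, 5114 and 3589.5 in endothelial cells against 1.19, 0 and 1.26 in microglia (-11.103 ± 0.61, adjusted p = 3.5e-05). Microglia had at most 1 read per library of each of these. The ETS factor gene *Erg*, which maintains endothelial identity, had 5183, 6196 and 5411 in endothelial cells against 0, 0 and 44.1 in microglia (-10.62 ± 1.42, adjusted p = 0.0016). The call was lost without Mi-340 and Ec-340 or without Mi-343 and Ec-343. The factors not called were *Ets2* and *Klf4*, at -0.18 and 0.38, and *Gata2* and *Klf2*. *Gata2*, a factor of blood progenitors and endothelium, had 259, 999 and 754 in endothelial cells against 5.94, 283 and 83.1 in microglia. Its adjusted p was 0.1, and 0.025 with the brain as a block. *Klf2*, a factor induced by shear stress, had 34313, 40032 and 14323 in microglia and 4114, 18107 and 8087 in endothelial cells, so that Mi-346 overlapped with Ec-343. Its adjusted p was 0.076, 0.032 with the brain as a block and 0.038 without Ec-343.

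Regulators that blood and endothelial progenitors share lay between these extremes. Of 14 tested, 6 were higher in microglia, beside 13.3% of all genes, 3 in endothelial cells, beside 12.1%, and 5 in neither, with a median of 0.998. *Ets1* was higher in endothelial cells at 36571, 43416 and 37661 in endothelial cells against 3522, 3064 and 1951 in microglia (-3.82 ± 0.23, adjusted p = 4.6e-05). *Lmo2*, a LIM adaptor of the TAL1 complex named after its values were seen, had 7667, 10132 and 8628 in endothelial cells against 3290.2, 3435 and 2476 in microglia (-1.53 ± 0.19, adjusted p = 0.0012). *Mef2c* was higher in microglia at 29839.9, 25288 and 25467 in microglia and 3143, 3062 and 4200.3 in endothelial cells (2.96 ± 0.17, adjusted p = 3.7e-05). All 3 were present in both populations and did not overlap. *Fli1*, an ETS factor also named after its values were seen, was high in all 6 libraries at 10360.4, 12905 and 10738 in endothelial cells against 6439, 7222 and 7647 in microglia (-0.67 ± 0.15, adjusted p = 0.014). Its call was lost without Mi-340 or Mi-343 (highest adjusted p 0.059) and without any 1 brain. The 6 higher in microglia became 3 to 5 when 1 library was left out and 2 without Mi-343 and Ec-343 or without Mi-346 and Ec-346.

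Promoters were read because the myeloid factor PU.1 was among the clearest differences. The 8 letters GAGGAAGT, a short form of the PU.1 motif, were searched on both strands of the RefSeq promoters (GRCm38.p6, 250 bases before to 50 after a gene's start). They stood in 7.37% of 1194 promoters of the genes over 10-fold higher in microglia, of which 926 of 1413 were matched by symbol. The share was 1.9% of 1050 promoters of the endothelial genes, of which 795 of 1311 were matched, and 3.14% of 15377 promoters of all tested genes. Another ETS form, CCGGAAGT, which shares its last letters GGAAGT with the PU.1 form, stood in 2.18%, 1.43% and 7.07% of the same promoters. The SOX letters AACAAT stood in 8.63%, 7.71% and 6.32%, and the AP-1 letters TGACTCA in 6.62%, 5.81% and 3.93%. The joint ETS-IRF motif stood in 3.85%, 2.38% and 2.4%, and the lysosomal E-box TCACGTGA in 1.17%, 0.762% and 1.64%. A match is a description of letters, not a bound site. Among the 12 leading microglia genes, 10 have a promoter in that table and those of *Ctss*, *C1qc* and *Pld4* hold the PU.1 letters. The SOX letters stand in that of *Tek* among the leading endothelial genes, and also in those of the microglia genes *Mpeg1*, *Plek* and *Fcgr3*, of which the RefSeq start of *Plek* lies 43663 bases and those of *Fcgr3* 5532 and 5541 bases inside the gene as GENCODE vM21 gives it. The PU.1 promoters and that of *Tek* are shown up to 30 bases past the start, with the motif in capitals, 5′ to 3′ on the strand of the gene. The motif starts 2 bases before the RefSeq start in *Ctss* and 195 before it in *C1qc*, in both on the opposite strand, and 9 after it in *Pld4*. In *Tek* it starts 63 bases before the start, on the opposite strand. For *C1qc* the RefSeq start lies 151 bases inside the GENCODE gene, so that its motif starts 44 bases before the first base of that annotation, while the starts of the other 3 are the same in both.
Ctss (chr3:95526536-95526815, plus strand): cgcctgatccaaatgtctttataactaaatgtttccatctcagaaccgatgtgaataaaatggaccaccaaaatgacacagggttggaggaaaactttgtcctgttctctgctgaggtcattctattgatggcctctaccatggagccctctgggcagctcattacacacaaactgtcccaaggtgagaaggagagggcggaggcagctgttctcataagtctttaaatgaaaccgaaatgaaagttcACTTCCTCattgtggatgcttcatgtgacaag
C1qc (chr4:136892885-136893164, minus strand): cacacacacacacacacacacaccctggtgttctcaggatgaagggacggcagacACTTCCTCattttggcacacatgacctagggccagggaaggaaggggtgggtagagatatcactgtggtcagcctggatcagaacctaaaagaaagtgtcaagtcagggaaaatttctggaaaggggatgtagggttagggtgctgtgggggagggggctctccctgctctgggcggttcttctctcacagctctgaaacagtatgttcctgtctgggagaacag
Pld4 (chr12:112760405-112760684, plus strand): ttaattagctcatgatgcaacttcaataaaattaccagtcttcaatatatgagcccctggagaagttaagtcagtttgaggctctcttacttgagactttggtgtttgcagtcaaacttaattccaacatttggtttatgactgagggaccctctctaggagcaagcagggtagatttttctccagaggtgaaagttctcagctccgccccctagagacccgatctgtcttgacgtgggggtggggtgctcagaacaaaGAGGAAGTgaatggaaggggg
Tek (chr4:94739039-94739318, plus strand): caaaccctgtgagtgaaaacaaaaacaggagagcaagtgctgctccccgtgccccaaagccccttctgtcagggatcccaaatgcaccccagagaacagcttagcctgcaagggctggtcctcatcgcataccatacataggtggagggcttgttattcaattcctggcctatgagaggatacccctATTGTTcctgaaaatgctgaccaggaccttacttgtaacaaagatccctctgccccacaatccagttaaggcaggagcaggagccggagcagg

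Microglia carried most of the complement genes. Of 15 tested, 10 were higher in microglia, each more than 10-fold, beside 7.38% of all genes. Of the rest, 2 were higher in endothelial cells, beside 12.1% of all genes, and 3 in neither. Besides the C1q chains, the C5a receptor gene *C5ar1* had 1593, 1678 and 2886 in microglia and 0 in every endothelial library, at least 437-fold. The C3a receptor gene *C3ar1*, named after its values were seen, had 15243, 18458 and 21693 in microglia and 53.2, 25.6 and 61.8 in endothelial cells (8.67 ± 0.38, adjusted p = 1.5e-05). Both lay far lower in the endothelial libraries. The endothelial genes were *Cd93* and *Cd59a*. *Cd93*, once described as a C1q receptor, had 22941, 30264 and 26327 in endothelial cells against 15.5, 106 and 65.5 in microglia (-9.08 ± 0.64, adjusted p = 9.3e-05). *Cd59a*, which blocks the membrane attack complex, had 450.1, 450.0 and 392 in endothelial cells against 36.8, 30.8 and 62.9 in microglia (-3.34 ± 0.49, adjusted p = 0.0024). *Cd55*, *Cfp* and *C1ra* were not called. Without Mi-343 and Ec-343 the 2 endothelial calls became 1.

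Activating immune receptors and their adaptors were higher in microglia. Of 18 genes of Fc receptors and ITAM signalling, 17 were higher there, beside 13.3% of all genes. *Fgr*, a Src family kinase gene, was not called (adjusted p = 0.13, or 0.047 without Ec-340). The adaptor gene *Tyrobp* (DAP12) had 16917, 16779 and 18492 in microglia and 3.54, 0 and 0 in endothelial cells (13.36 ± 0.67, adjusted p = 2.5e-05). *Trem2*, a lipid receptor that signals through DAP12, had 13252, 13436 and 16408 in microglia and 1.77, 0 and 0 in endothelial cells (13.31 ± 0.57, adjusted p = 1.4e-05). Adaptor and receptor thus went together. *Vav1*, an exchange factor for small GTPases, had 8599, 8408 and 7496 in microglia and 0, 4.26 and 0 in endothelial cells (12.195 ± 0.75, adjusted p = 5.1e-05).

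Of 21 Toll-like receptor and inflammasome genes, 17 were higher in microglia, beside 13.3% of all genes, and 4 in neither. *Ly86*, which encodes the MD-1 partner of the receptor RP105, had 15014, 15995 and 21819 in microglia and 0, 1.42 and 0 in endothelial cells (13.66 ± 0.54, adjusted p = 1.2e-05). *Nlrp3*, an inflammasome sensor, had 2564, 2505 and 3803 in microglia and 0 in every endothelial library, at least 629-fold. *Casp1*, the inflammasome protease, had 2590.1, 2210.4 and 2781 in microglia and 0 in every endothelial library, at least 538-fold. Neither inflammasome gene had a read in endothelial cells. The RNA sensor gene *Tlr7* had 2149, 1765 and 2922 in microglia and 0 in every endothelial library, at least 485-fold. The lipopolysaccharide co-receptor gene *Cd14* had 3272, 4893 and 8351 in microglia and 26.6, 0 and 0 in endothelial cells (10.73 ± 1.297, adjusted p = 9.9e-04). *Tlr3*, a sensor of double-stranded RNA, had 1196, 521 and 1159.8 in endothelial cells against 51.1, 358 and 383 in microglia and did not pass the test (-2.22 ± 0.81, adjusted p = 0.09). *Ly96*, *Tlr12* and *Tlr5* were not called either, where *Tlr5* had an adjusted p of 0.25, and 0.044 without Mi-343.

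Of 18 chemokine and chemokine receptor genes, 13 were higher in microglia, beside 13.3% of all genes, 2 in endothelial cells, beside 12.1%, and 3 in neither. Besides *Ccl4* and *Ccl3*, the fractalkine receptor gene *Cx3cr1* had 46150.5, 46458 and 48423 in microglia and 1.77, 14.2 and 0 in endothelial cells (13.72 ± 0.900, adjusted p = 6.5e-05). *Ccr1* had 1740.2, 1508 and 3322 in microglia and 0 in every endothelial library, at least 466-fold. The endothelial genes both encode ligands. *Cxcl12* had 3301, 4163 and 2689 in endothelial cells against 14.3, 1.19 and 0 in microglia (-10.02 ± 0.996, adjusted p = 4.1e-04). *Cx3cl1*, the ligand of CX3CR1, had 259, 674 and 92.0 in endothelial cells against 46.4, 0 and 1.26 in microglia (-5.74 ± 1.54, adjusted p = 0.032). That call was lost without Ec-340, Ec-343, Ec-346, Mi-343 or Mi-346 (highest adjusted p 0.12). *Cxcr4*, the receptor of CXCL12, overlapped at 68.9, 196 and 342 in microglia and 317, 226 and 289.6 in endothelial cells, and *Ackr1* and *Ackr3* were not called either.

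Of 15 purinergic receptors and ectoenzymes, 11 were higher in microglia, beside 13.3% of all genes, or 7 without Mi-343 and Ec-343. *P2ry12*, the ADP receptor that steers microglial processes, had 64898, 57349 and 46749.8 in microglia and 0, 0 and 176 in endothelial cells, so that all endothelial reads came from Ec-346 (13.28 ± 1.87, adjusted p = 0.002). The call was lost without Mi-340 and Ec-340 or without Mi-343 and Ec-343. *P2ry13*, a further ADP receptor, had 10539, 11154 and 11425 in microglia and 0, 1.42 and 0 in endothelial cells (13.005 ± 0.55, adjusted p = 1.4e-05). *P2ry6*, a UDP receptor linked to phagocytosis, had 6037, 5989 and 5419 in microglia and 0 in every endothelial library, at least 1237-fold. No endothelial library came near the microglia levels of these receptors. *Gpr34*, a lysophosphatidylserine receptor, had 14962, 13161 and 11595 in microglia and 7.09, 0 and 4.52 in endothelial cells (11.86 ± 0.78, adjusted p = 6.9e-05). The adenosine receptor gene *Adora2a* was higher in endothelial cells at 3383, 6833 and 3947 in endothelial cells against 73.7, 43.9 and 156 in microglia (-5.801 ± 0.52, adjusted p = 2.6e-04). *Nt5e*, *Adora1* and *Adora2b* were not called, where *Adora2b* had an adjusted p of 0.21, and 0.028 without Ec-346.

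Lysosomal genes were higher in microglia with few exceptions. Of 28 tested, 26 were higher there, beside 13.3% of all genes, and 15 of them more than 10-fold, beside 7.38%. Their median was 3.596. *Ctsc*, a protease that activates granule enzymes, had 24506, 29823 and 50298 in microglia and 1074, 269.7 and 244 in endothelial cells (6.32 ± 0.58, adjusted p = 2.8e-04). *Lgmn*, the asparaginyl protease legumain, had 137169, 134157 and 151624 in microglia and 2506, 3323 and 2249 in endothelial cells (5.73 ± 0.16, adjusted p = 4.7e-06). Endothelial cells kept a measurable level of both, unlike of *Ctss*. *Cd68*, a membrane protein of macrophage lysosomes, had 12155, 13168 and 15979 in microglia and 389.8, 248 and 255 in endothelial cells (5.55 ± 0.25, adjusted p = 1.6e-05). *Lipa*, the acid lipase gene, overlapped at 4845, 6132 and 6560.4 in microglia and 6462, 5454 and 4418 in endothelial cells. *Gla* was not called either (adjusted p = 0.11, or 0.011 without Ec-340).

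Of 21 lipid and phagocytosis genes tested, 15 were higher in microglia, beside 13.3% of all genes, 1 in endothelial cells, beside 12.1%, and 5 in neither. The 15 became 12 to 14 when 1 library was left out and 8 without Mi-346 and Ec-346. *Lpl*, lipoprotein lipase, had 6418, 7995 and 10484 in microglia and 1.77, 1.42 and 58.8 in endothelial cells (10.11 ± 1.18, adjusted p = 8.6e-04). *Mertk*, a receptor for dying cells, had 4053, 5138 and 9879 in microglia and 42.5, 7.10 and 1.51 in endothelial cells (9.26 ± 0.997, adjusted p = 5.7e-04). *Itgax*, *Cd36* and *Msr1* had 226 to 689 normalized counts in microglia and 0 in every endothelial library, at least 123-fold, 117-fold and 77-fold. *Apoe*, the lipid carrier apolipoprotein E, named after its values were seen, had 223048, 208291 and 273405 in microglia and 9714, 8504 and 9476 in endothelial cells (4.66 ± 0.12, adjusted p = 4.5e-06). *Mfge8*, the bridging protein that marks dying cells for engulfment, went the other way at 4694, 7624 and 4694 in endothelial cells against 308, 295 and 272 in microglia (-4.24 ± 0.27, adjusted p = 5.9e-05). The cholesterol exporter genes *Abca1* and *Abcg1* were not called, with differences of 0.01 (95% interval -0.41 to 0.43) and -0.34 (-0.73 to 0.05). *Scarb1* and *Axl* were not called either, where *Axl* had an adjusted p of 0.093, and 0.0024 without Ec-340.

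Of 14 MHC and antigen presentation genes tested, 9 were higher in microglia, beside 13.3% of all genes, and 5 in neither. The invariant chain gene *Cd74* had 2654, 4766 and 3511 in microglia and 0, 11.4 and 0 in endothelial cells (10.58 ± 1.04, adjusted p = 3.9e-04). The class II gene *H2-Aa* had 541, 787 and 385 in microglia and 0 in every endothelial library, at least 122-fold. *H2-Eb1*, of the same class, had 181, 956 and 201 in microglia and 0 in every endothelial library, at least 95-fold. Mi-343 was highest for all 3. The 9 became 6 to 11 when 1 library was left out, and 5 without Mi-343 and Ec-343 or without Mi-346 and Ec-346.

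The cytoskeleton and its GTPases divided by population. All 15 tested genes of leukocyte cytoskeleton and GTPase signalling were higher in microglia, and all 16 endothelial junction and GTPase genes were higher in endothelial cells. The lists were built from genes known from these cell types, so their direction is not independent evidence. *Rac2*, the Rac of blood cells, had 14387, 11000 and 8863 in microglia and 1.77, 0 and 0 in endothelial cells (12.96 ± 0.59, adjusted p = 1.6e-05). *Dock2*, an activator of Rac, had 5769, 7716 and 8358 in microglia and 0 in every endothelial library, at least 1549-fold. *Arhgap30* had 6151, 6420.2 and 6030.4 in microglia and 1.77, 4.26 and 0 in endothelial cells (11.31 ± 0.68, adjusted p = 5.0e-05). These were close to absent from endothelial cells. *Lcp1*, the actin bundler L-plastin of leukocytes, had the smallest difference of its list, at 39164, 37800.2 and 35172 in microglia and 26212, 26251 and 23049.7 in endothelial cells (0.57 ± 0.101, adjusted p = 0.0057). In the endothelial list *Adgrl4*, an adhesion receptor, had 13220.3, 12528 and 10328 in endothelial cells against 0, 2.37 and 16.4 in microglia (-11.59 ± 0.96, adjusted p = 1.9e-04). *Fgd5*, a CDC42 exchange factor, had 4793, 6220.3 and 4841 in endothelial cells against 1.19, 5.93 and 1.26 in microglia (-10.66 ± 0.604, adjusted p = 3.8e-05). Microglia had few reads of both. *Myct1* had 2878, 2539 and 2692 in endothelial cells against 0 in every microglia library, at least 744-fold, and *Palmd* had 8530.0, 5766 and 8903 in endothelial cells against 4.75, 4.74 and 27.7 in microglia (-9.59 ± 0.68, adjusted p = 9.6e-05).

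**Figure D3:**
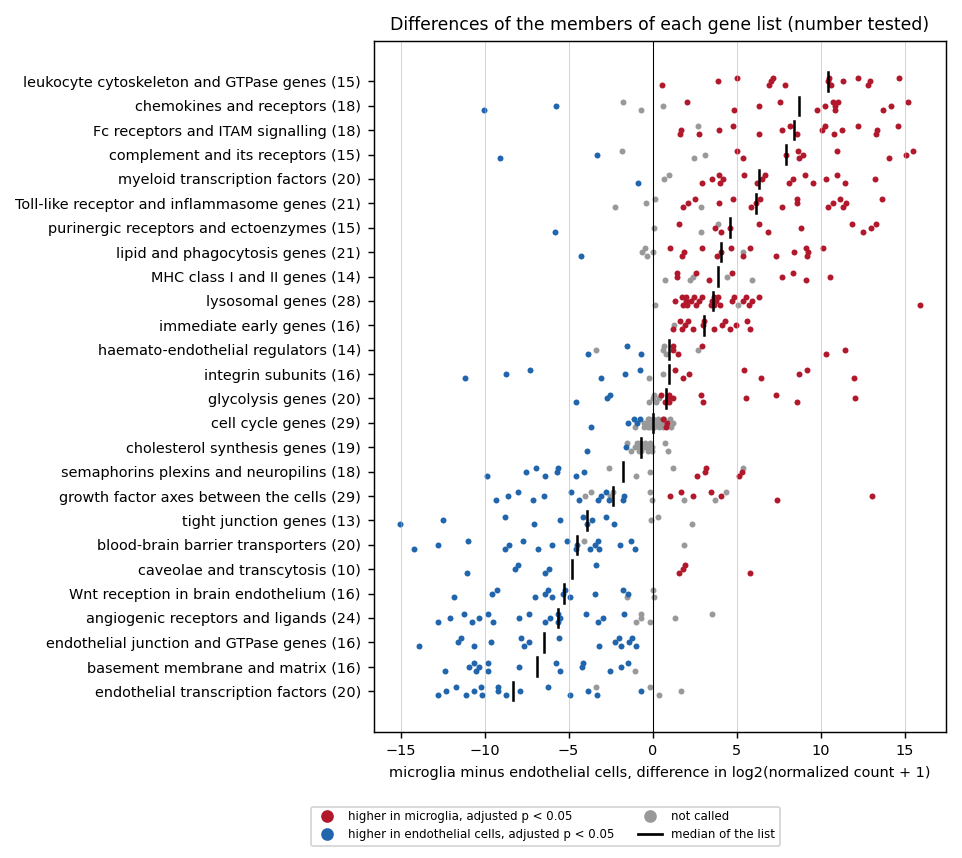
Difference in log2(normalized count + 1), microglia minus endothelial cells, of every tested member of 26 gene lists, with the number tested in brackets and the median as a bar. Lists of immune function and immediate early genes have medians from 3.02 to 10.44 and lists of vessel and barrier function from -8.33 to -3.89, while the median is 0.04 for cell cycle genes and -0.702 for cholesterol synthesis genes.

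The marker lists give the scale for the barrier genes. Of 22 endothelial markers, 21 were higher in endothelial cells, and *Slco1a4*, an organic anion transporter gene, was not called at 172, 28.4 and 0 in endothelial cells against 0 in every microglia library (adjusted p = 0.17, or 0.015 without Ec-346). Of 22 microglia markers all were higher in microglia, 21 of them more than 10-fold. The exception to the fold was *Laptm5*, a lysosomal protein of blood cells, at 45227, 45959 and 51846 in microglia and 5617, 7056 and 5591 in endothelial cells (2.98 ± 0.14, adjusted p = 1.6e-05).

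Of 13 tight junction genes tested, 10 were higher in endothelial cells, beside 12.1% of all genes, and 3 in neither. *Cldn5* and *Cgnl1* led. *Esam*, an adhesion molecule of endothelial junctions, had 9359, 16953 and 12979.5 in endothelial cells against 7.13, 59.3 and 46.6 in microglia (-8.799 ± 0.75, adjusted p = 2.1e-04). The scaffold gene *Tjp1* (ZO-1), named after its values were seen, had 13319.5, 15017 and 15105 in endothelial cells against 557, 1064 and 906 in microglia (-4.15 ± 0.26, adjusted p = 5.5e-05). *F11r*, which encodes the junctional adhesion molecule JAM-A of endothelium and leukocytes, overlapped at 7939, 9203 and 8806 in microglia and 5420.3, 8907 and 7059.9 in endothelial cells, a difference of 0.31 with a 95% interval of -0.16 to 0.78. *Marveld2* and *Tjp3* were not called.

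Of 20 blood-brain barrier transporters, 18 were higher in endothelial cells, beside 12.1% of all genes, and 13 of them more than 10-fold, beside 6.85%. Their median was -4.52. *Slc38a5* and *Slco1c1* are given above. The amino acid transporter gene *Slc38a3* had 6122, 9566 and 5659 in endothelial cells against 1.19, 17.8 and 0 in microglia (-10.97 ± 1.04, adjusted p = 3.3e-04). *Mfsd2a*, the lysolipid transporter that keeps transcytosis low, had 5668, 8034 and 6923 in endothelial cells against 1.19, 47.4 and 34.0 in microglia (-8.78 ± 1.105, adjusted p = 0.0012). The drug efflux pump gene *Abcb1a* had 2829.8, 2602 and 1973 in endothelial cells against 0, 5.93 and 39.0 in microglia (-8.55 ± 1.23, adjusted p = 0.0022). Groups were far apart in all 3. *Slc16a1*, a lactate transporter, overlapped at 262, 553 and 710.0 in microglia and 24.8, 511 and 167 in endothelial cells. Red cell genes were also higher in the endothelial libraries. Summed over 11 erythroid markers, the level was 13394 to 34612 in endothelial cells and 1741 to 2249 in microglia. *Hbb-bs*, *Hbb-bt*, *Hba-a1* and *Hba-a2* of 9 tested were called, beside 12.1% of all genes, or 7 of 9 with the brain as a block. These globin genes are near-identical pairs, so the share of each is uncertain. *Tfrc*, the transferrin receptor of the barrier that red cell precursors also use, had 11955, 9976 and 9408 in endothelial cells against 897, 1154 and 1375 in microglia (-3.21 ± 0.22, adjusted p = 7.3e-05). It was named after its values were seen, and the part of red cells in it was not tested.

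Of 16 genes of Wnt reception, 13 were higher in endothelial cells, beside 12.1% of all genes, and 3 in neither. The receptor gene *Fzd6* had 4077, 6186 and 4012 in endothelial cells against 1.19, 0 and 0 in microglia (-11.81 ± 0.61, adjusted p = 2.6e-05). *Apcdd1*, a Wnt target and inhibitor, had 7176, 9745 and 7966 in endothelial cells against 34.5, 0 and 35.3 in microglia (-9.56 ± 1.32, adjusted p = 0.0019). *Tnfrsf19* had 4240.2, 4416 and 2289 in endothelial cells against 11.9, 0 and 13.8 in microglia (-9.25 ± 1.05, adjusted p = 7.5e-04). Receptor and targets thus had the same direction. *Reck*, which with GPR124 receives Wnt7, was found at lower levels, 376, 281 and 93.5 in endothelial cells against 0, 1.19 and 1.26 in microglia (-6.99 ± 0.92, adjusted p = 0.0015). *Nkd1*, a feedback inhibitor, had 6655, 8474 and 7156 in endothelial cells against 152, 71.2 and 57.9 in microglia (-6.41 ± 0.398, adjusted p = 5.3e-05). The co-receptor genes *Lrp5* and *Lrp6* were not called, at 0.08 (95% interval -1.46 to 1.61) and -0.01 (-0.71 to 0.698), nor was *Notum*.

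Of 24 angiogenic receptors and ligands, 18 were higher in endothelial cells, beside 12.1% of all genes, and 6 in neither. The 18 became 11 without Mi-343 and Ec-343. The VEGF receptor gene *Flt1* had 25709, 26662 and 24010.5 in endothelial cells against 1.19, 28.5 and 47.8 in microglia (-10.76 ± 1.06, adjusted p = 4.0e-04). *Flt4*, a receptor for VEGF-C, had 4651, 5549 and 4131 in endothelial cells against 0, 2.37 and 13.8 in microglia (-10.33 ± 0.95, adjusted p = 2.8e-04). *Kdr*, the main signalling receptor of VEGF-A, named after its values were seen, had 31485, 44693 and 35589 in endothelial cells against 132, 319 and 271 in microglia (-7.35 ± 0.35, adjusted p = 1.9e-05). Per kilobase of exon, the mean endothelial level was 4126 normalized counts for *Kdr*, 1885 for *Flt1* and 580.3 for *Flt4*. The peptide gene *Apln* had 3037, 5739 and 4485 in endothelial cells against 0 in every microglia library, at least 1217-fold. Its receptor gene *Aplnr* had 12079, 21832 and 15875 in endothelial cells against 137, 0 and 1.26 in microglia, with nearly all microglia reads in Mi-340 (-11.22 ± 1.67, adjusted p = 0.0026). The call was lost without Mi-343 and Ec-343 or without Mi-346 and Ec-346. The co-receptor gene *Nrp1* overlapped at 5097, 4006 and 5782 in microglia and 5769, 5062 and 5737 in endothelial cells, a difference of -0.17 with a 95% interval of -0.597 to 0.26. *Vegfb* had 363, 474 and 783 in microglia and 88.6, 5.68 and 155 in endothelial cells, with an adjusted p of 0.063. Its adjusted p was 0.043 with the brain as a block, and at lowest 0.036 without Ec-343 or Ec-346. *Vegfa*, *Nrp2*, *Cxcr4* and *Pgf* were not called either.

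Of 10 genes of caveolae and transcytosis tested, 6 were higher in endothelial cells, each more than 10-fold, beside 6.85% of all genes, and 4 in microglia, beside 13.3%. *Plvap*, the diaphragm protein of fenestrae and caveolae, had 1834, 12091 and 6977 in endothelial cells against 0, 0 and 15.1 in microglia and ranged widely among endothelial libraries (-11.05 ± 1.24, adjusted p = 7.1e-04). *Cavin1*, a coat protein of caveolae, had 12910.2, 29902 and 22781 in endothelial cells against 137, 107 and 21.4 in microglia (-8.22 ± 0.696, adjusted p = 2.0e-04). *Cavin2* had 989, 1745 and 2087 in endothelial cells against 35.7, 4.74 and 0 in microglia (-8.01 ± 1.24, adjusted p = 0.0031). The genes higher in microglia were *Lrp1*, *Dab2*, *Ehd4* and *Pacsin2*. *Lrp1*, a scavenger receptor, had 9256, 9981 and 9787 in microglia and 122, 325 and 124 in endothelial cells (5.82 ± 0.401, adjusted p = 8.2e-05). *Dab2*, *Ehd4* and *Pacsin2* differed by 1.92, 1.78 and 1.59. Without Mi-343 and Ec-343 the 4 became 2.

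Of 16 basement membrane genes, 15 were higher in endothelial cells, beside 12.1% of all genes, and *Mgp* was not called. The collagen IV gene *Col4a1* had 27817, 30074 and 26099 in endothelial cells against 9.51, 73.5 and 7.55 in microglia (-10.53 ± 0.78, adjusted p = 1.1e-04). Its partner *Col4a2* had 19925, 35127 and 23098 in endothelial cells against 15.5, 5.93 and 17.6 in microglia (-10.94 ± 0.46, adjusted p = 1.4e-05). *Col18a1* had 6466, 15187 and 5487 in endothelial cells against 0, 22.5 and 5.04 in microglia (-10.61 ± 1.101, adjusted p = 4.9e-04). The perlecan gene *Hspg2* had 7004, 8173 and 5544 in endothelial cells against 1.19, 7.12 and 7.55 in microglia (-10.32 ± 0.63, adjusted p = 5.0e-05). None of the 4 reached 100 normalized counts in a microglia library. *Sparc*, a collagen-binding protein named after its values were seen, was abundant on both sides at 95193, 68560.5 and 94976 in endothelial cells against 22715, 27280.5 and 45887 in microglia (-1.48 ± 0.26, adjusted p = 0.0059). Mural cells make basement membrane too. Summed over 14 mural markers, endothelial libraries had 4450 to 7502 normalized counts and microglia 414 to 601, against 726852 to 781584 in the mural libraries. That is 0.595% to 1% of the mean mural level in endothelial cells. *Rgs5*, *Vtn* and *Ndufa4l2* of 12 tested were called, beside 12.1% of all genes, or 1 of 12 without Mi-343 and Ec-343, where the call of *Vtn* was lost without any 1 library but Mi-340 (highest adjusted p 0.092), and most of the sum was *Rgs5* at 6872, 3469 and 5212 in endothelial cells against 349, 162 and 301 in microglia. *Nid1* had a mural mean of 24754, beside an endothelial mean of 12304 ± 2188 (SD, n = 3). The part of mural cells in these genes was not tested.

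Of 16 integrin subunits, 8 were higher in microglia, beside 13.3% of all genes, 6 in endothelial cells, beside 12.1%, and 2 in neither. *Itgb5*, a partner of the αv subunit, had 9799, 11261 and 11983 in microglia and 0, 7.10 and 1.51 in endothelial cells (11.97 ± 0.76, adjusted p = 5.9e-05). *Itga1*, of a collagen receptor, had 7678, 6030.1 and 6651 in endothelial cells against 10.7, 0 and 1.26 in microglia (-11.15 ± 0.89, adjusted p = 1.5e-04). *Itga3*, of a laminin receptor, had 571, 420.2 and 319.7 in endothelial cells against 0 in every microglia library, at least 120-fold. Each of these 3 had few or no reads in the other population. Of all calls in the list, 5 of the 8 in microglia and 3 of the 6 in endothelial cells were over 10-fold. *Itgax*, the subunit CD11c, is given above, and *Itga5* and *Itga9* were not called. The 8 became 4 to 7 without 1 library, and 3 without Mi-343 and Ec-343 or without Mi-346 and Ec-346. The 6 became 2 without Mi-343 and Ec-343 and 3 without Mi-340 and Ec-340.

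Growth factors and their receptors were counted as axes between the populations. Of 29 genes tested, 7 were higher in microglia, beside 13.3% of all genes, 13 in endothelial cells, beside 12.1%, and 9 in neither. Without Mi-343 and Ec-343 or without Mi-346 and Ec-346 they became 5 and 9. *Csf1r* had 49197, 58040.3 and 61790.5 in microglia and 12.4, 19.9 and 0 in endothelial cells (13.07 ± 1.05, adjusted p = 1.6e-04). Its ligand gene *Csf1*, named after its values were seen, was higher in microglia as well, at 4921, 5826 and 5095 in microglia and 243, 991 and 445 in endothelial cells (3.47 ± 0.48, adjusted p = 0.0018). *Ramp2*, a subunit of the adrenomedullin receptor, had 7995, 8124 and 8274 in endothelial cells against 68.9, 1.19 and 12.6 in microglia (-9.32 ± 1.12, adjusted p = 9.5e-04). *Adm*, which encodes adrenomedullin, had 4609, 1651 and 2493 in endothelial cells against 0, 36.8 and 7.55 in microglia (-8.603 ± 1.25, adjusted p = 0.0023). Ligand and receptor subunit were thus both higher in the same population in each of these pairs. *Igf2* had 152, 385 and 279 in endothelial cells against 0 in every microglia library, at least 75-fold. *Hgf*, the ligand of MET, had 138, 130.4 and 258 in microglia and 0 in every endothelial library, at least 37-fold.

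The TGF-β receptors, named after their values were seen, differed by subunit. *Tgfbr1* had 22109, 22313 and 20186 in microglia and 1157, 1312 and 1312 in endothelial cells (4.09 ± 0.15, adjusted p = 8.1e-06). *Tgfbr2* overlapped at 3730.0, 3293 and 3807 in microglia and 3654, 4784 and 3869 in endothelial cells, a difference of -0.18 with a 95% interval of -0.59 to 0.24. The ligand genes went different ways. *Tgfb1* was higher in microglia at 1823, 2342 and 1819 in microglia and 962, 1060.4 and 869 in endothelial cells (1.04 ± 0.23, adjusted p = 0.014), a call lost without Mi-343 (adjusted p 0.065) and without any 1 brain. *Tgfb2* was higher in endothelial cells at 2606, 1366 and 2077 in endothelial cells against 8.32, 17.8 and 61.7 in microglia (-6.45 ± 0.73, adjusted p = 7.3e-04). *Tgfb3*, which is not in the list, overlapped at 7.13, 62.9 and 10.1 in microglia and 56.7, 62.5 and 115 in endothelial cells (adjusted p = 0.17). The co-receptor gene *Eng* had 18059, 27511 and 19002 in endothelial cells against 1218, 1012 and 802 in microglia (-4.41 ± 0.24, adjusted p = 3.1e-05). *Nrros*, whose product holds latent TGF-β on microglia, had 8319, 9494 and 11706 in microglia and 2601, 3383 and 2983 in endothelial cells (1.71 ± 0.19, adjusted p = 6.4e-04). Its relative *Lrrc32*, which encodes GARP, had 291, 295 and 28.7 in endothelial cells against 0 in every microglia library, at least 56-fold. The ligand, co-receptor and latency genes were named after their values were seen too.

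Of 18 semaphorins, plexins and neuropilins, 8 were higher in endothelial cells, all more than 10-fold, beside 6.85% of all genes, and 5 in microglia, beside 13.3%. *Sema3g* had 856, 1448 and 1359 in endothelial cells against 0, 1.19 and 0 in microglia (-9.84 ± 0.71, adjusted p = 1.0e-04). *Sema7a* had 307, 1136 and 211 in endothelial cells against 0, 2.37 and 2.52 in microglia (-7.53 ± 0.97, adjusted p = 0.0013). *Sema6a* had 6278, 9462 and 5804 in endothelial cells against 111, 62.9 and 25.2 in microglia (-6.94 ± 0.54, adjusted p = 1.5e-04). Secreted, anchored and transmembrane semaphorins were thus among the endothelial genes. *Plxnd1*, the plexin of endothelial cells, had 10676, 14716 and 12001 in endothelial cells against 163, 272 and 334 in microglia (-5.65 ± 0.31, adjusted p = 3.3e-05). *Plxnb2* was higher in microglia at 6778, 9714 and 11430 in microglia and 949.8, 1255 and 1024 in endothelial cells (3.09 ± 0.24, adjusted p = 1.5e-04). *Sema4d*, a ligand of B plexins, had 2488, 3050.0 and 4415 in microglia and 24.8, 217 and 142 in endothelial cells (5.12 ± 0.77, adjusted p = 0.0027). Both plexins and *Sema4d* were named after their values were seen. The 5 in microglia became 3 to 6 without 1 library, and 2 without Mi-340 and Ec-340 or without Mi-346 and Ec-346.

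Several genes of hexose transport and phosphorylation differed between the populations. *Slc2a1* (GLUT1), the glucose carrier of the barrier, had 40547, 47887 and 42824 in endothelial cells against 1752, 1493 and 2478 in microglia (-4.55 ± 0.204, adjusted p = 1.6e-05). *Slc2a5*, a fructose carrier found in microglia, had 4746, 3756 and 4379 in microglia and 0 in every endothelial library, at least 914-fold. *Slc2a3* (GLUT3) had 417, 357 and 365 in microglia and 0 in every endothelial library, at least 81-fold. None of the 3 carriers overlapped between the populations. The hexokinase gene *Hk2* had 5389, 4006 and 4058 in microglia and 19.5, 177 and 4.52 in endothelial cells (7.35 ± 1.13, adjusted p = 0.0031). *Hk3* had 4235, 3579 and 2995 in microglia and 83.3, 72.4 and 67.9 in endothelial cells (5.57 ± 0.301, adjusted p = 3.1e-05). *Hk1* went the other way at 1262, 2319 and 1669.6 in endothelial cells against 462, 194 and 281 in microglia (-2.53 ± 0.41, adjusted p = 0.0038). *Pfkp*, a phosphofructokinase gene, was also higher in endothelial cells (-2.71 ± 0.496, adjusted p = 0.0066). Of 20 glycolysis genes, 12 were higher in microglia, beside 13.3% of all genes, or 8 to 11 without 1 library and 5 or 6 without 1 brain. The 3 endothelial calls, beside 12.1% of all genes, became 1 without Mi-343 and Ec-343. *Pkm* and *Gapdh* were not called, with differences of 0.19 (95% interval -0.097 to 0.48) and 0.37 (0.01 to 0.72).

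Of 29 cell cycle genes tested, 3 were higher in microglia, beside 13.3% of all genes, and 5 in endothelial cells, beside 12.1%, and the median difference was 0.04, beside 0.07 over all genes. In this fit the shares are near the background. The 3 became 0 to 3 and the 5 became 1 to 3 when 1 library was left out, and they were 1 and 3 with edgeR, 4 and 6 with DESeq2, and 7 and 6 with all 12 bulk libraries. *Mki67*, a marker of dividing cells, had 5159, 7323 and 9734 in microglia and 9157, 7110.3 and 9512 in endothelial cells, a difference of -0.25 with a 95% interval of -0.84 to 0.34. *Top2a* had 7952, 8204 and 9819 in microglia and 8284, 8469 and 12776 in endothelial cells, a difference of -0.16 (-0.64 to 0.31). The groups overlapped in both. *Cdkn1c*, an inhibitor of cell division, was higher in endothelial cells at 4315, 6382 and 5093 in endothelial cells against 603, 409 and 257 in microglia (-3.701 ± 0.35, adjusted p = 3.2e-04). The other calls were *Mcm3*, *Mcm5* and *Pcna* in microglia, from 0.61 to 0.88, and *Ccnd1*, *Ccnd2*, *Ccnd3* and *Cdkn1a* in endothelial cells, from -1.46 to -0.74. Each of these 7 calls was lost without some single library, and those of *Mcm3*, *Mcm5*, *Pcna*, *Ccnd3* and *Cdkn1a* without any 1 brain. *Ccnd1* and *Ccnd2* lost theirs without 2 of the 3 brains. The highest adjusted p without 1 library were 0.16, 0.058, 0.11, 0.091, 0.16, 0.16 and 0.18, in the order named. With the brain as a block the adjusted p of *Mcm3*, *Pcna* and *Ccnd2* was 0.059, 0.092 and 0.056.

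Of 19 cholesterol synthesis genes, 2 were called, both higher in endothelial cells, beside 12.1% of all genes. *Sqle*, squalene epoxidase, had 2826, 3783 and 1745 in endothelial cells against 565, 1077 and 1159 in microglia (-1.57 ± 0.39, adjusted p = 0.024). Its call was lost without any 1 library but Ec-346 (highest adjusted p 0.08). The count of 2 became 0 without Ec-343 and 5 with DESeq2 or with the 9 libraries of the same kit, and 8 with all 12 bulk libraries. The median difference of the 19 was -0.702. Every endothelial library lay above every microglia library in 9 of them, beside 19.2% of all genes, and the reverse held in 1, beside 21.9%.

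Immediate early genes, which cells switch on within minutes of a stimulus, were higher in microglia. Of 16 tested, 15 were higher there, beside 13.3% of all genes, and 7 of them more than 10-fold, beside 7.38%. Their median was 3.02. *Egr3* had 1573, 1476 and 1857 in microglia and 37.2, 56.8 and 10.6 in endothelial cells (5.79 ± 0.64, adjusted p = 6.5e-04). *Egr2* had 14402, 13209 and 9412 in microglia and 587, 125 and 213 in endothelial cells (5.597 ± 0.54, adjusted p = 3.4e-04). *Zfp36*, which destabilises cytokine messages, had 73407, 59352 and 40844 in microglia and 1509.7, 2236 and 1757 in endothelial cells (4.96 ± 0.25, adjusted p = 2.4e-05). Mi-346 was lowest of the microglia libraries for 12 of the 16 genes. *Egr1* had 123041, 109015 and 63713 in microglia and 3296, 5245 and 6580.2 in endothelial cells (4.29 ± 0.32, adjusted p = 1.2e-04). *Fosb* had 13699, 22502 and 24618 in microglia and 321, 1173 and 1493 in endothelial cells (4.57 ± 0.56, adjusted p = 0.0011). *Fos*, named after its values were seen, had 125450, 129272 and 101542 in microglia and 7665, 8723 and 12708 in endothelial cells (3.64 ± 0.199, adjusted p = 3.3e-05). In mural cells, whose libraries were made with the same kit, the mean of *Fos* was 46294, between the other populations. *Atf3*, a stress-induced factor also named after its values were seen, had 56827, 57865 and 55693 in microglia and 3200.1, 3641 and 2875 in endothelial cells (4.14 ± 0.13, adjusted p = 4.8e-06), and a mural mean of 1453. *Fosl2* was the gene not called. The 15 became 12 to 15 when 1 library was left out.

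**Figure D4:**
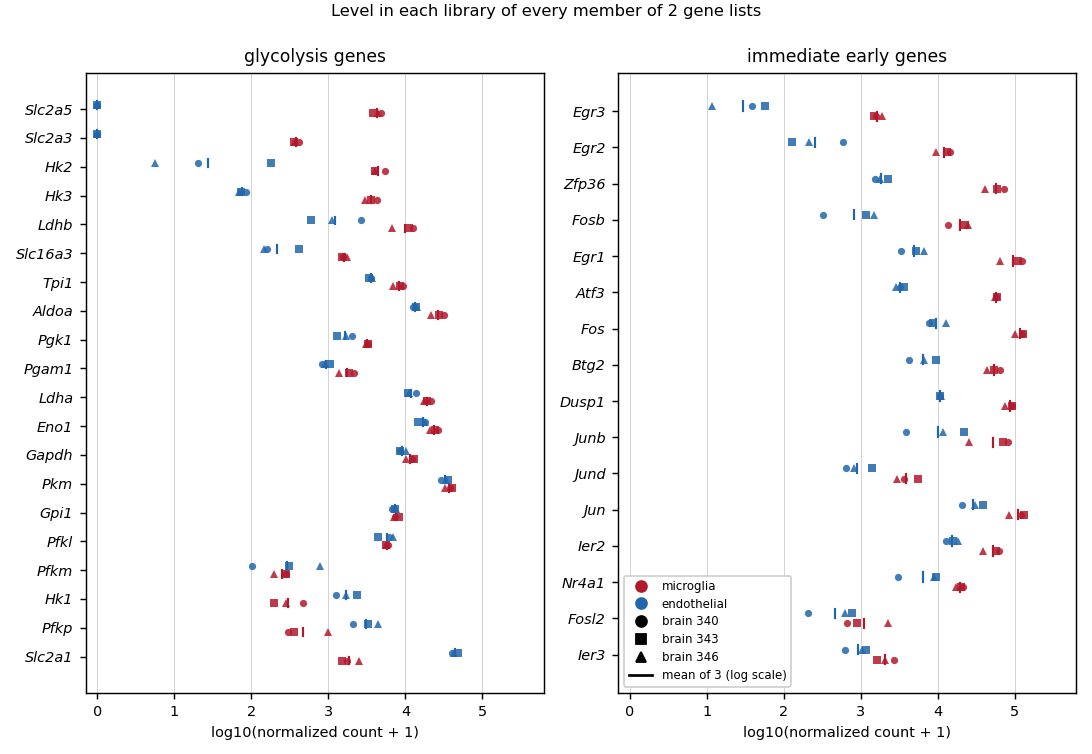
Level of all 20 glycolysis genes and all 16 immediate early genes in each of the 6 libraries, as log10(normalized count + 1), ordered from the largest difference towards microglia at the top to endothelial cells at the bottom, with a bar at the mean of the 3 log values. Slc2a5 and Slc2a3 are at 0 in all endothelial libraries and Slc2a1 is highest there. In 15 immediate early genes every microglia library lies above every endothelial library, beside 21.9% of all genes tested.

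Markers of other cells were summed in each library. Border macrophage markers, of the macrophages of meninges and vessels, reached 31681 to 41252 normalized counts in microglia and 6150 to 8196 in endothelial cells. Of 9 tested, 7 were higher in microglia, beside 13.3% of all genes, or 4 without Mi-343 and Ec-343 or without Mi-346 and Ec-346. *Mrc1*, their best known marker, had 10241, 7987 and 10492 in microglia and 44.3, 15.6 and 0 in endothelial cells (10.03 ± 1.27, adjusted p = 0.0012). *Ms4a7* had 998, 485 and 899 in microglia and 0 in every endothelial library, at least 169-fold. *Stab1*, which some endothelium also expresses, made up most of the endothelial sum at 7876, 7985 and 5871 in endothelial cells against 12568, 16026 and 20863 in microglia. *Cd209f* was at 0 in all 6 libraries. Monocyte and granulocyte markers reached 4140, 3332 and 11688 in Mi-340, Mi-343 and Mi-346 and at most 37.2 in an endothelial library. Of these, 10 of 12 were higher in microglia, beside 13.3% of all genes. *Ccr2*, the monocyte chemokine receptor, had 1113, 1067 and 4333 in microglia and 0 in every endothelial library. *Plac8* had 668, 385 and 2731 in microglia and 0 in every endothelial library. Both were highest in Mi-346, as was *Lyz2*. The part of these cells in the immune groups was not tested.

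Leaving out both libraries of a brain leaves 2 libraries against 2. Of the 177 genes named in the text that were called, 40 lost the call without at least 1 of the 3 brains. Among genes that kept the call without any 1 library, *Hk1*, *Lcp1*, *Lrrc32*, *Ndufa4l2*, *Nes*, *Pacsin2*, *Pfkp*, *Sparc* and *Stab1* lost it without each of 2 brains, as did the 4 given above, *Aplnr*, *Erg*, *P2ry12* and *Runx1*. A further 11 lost it without 1 brain, namely *Abcb1a*, *Adm*, *Cavin2*, *Cd59a*, *Csf1*, *Dab2*, *Hbb-bt*, *Hk2*, *Ramp2*, *Sall1* and *Sema4d*.

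Neural markers reached 28799 to 31100 normalized counts in endothelial cells, 14.4% to 15.5% of the mean level in the neural libraries, and 13000 to 17494 in microglia. *Sox11* and *Nes* made up 79.6% to 87.6% of the endothelial sum and 64.2% to 70.1% of that of microglia. The other 12 markers summed to 3659 to 6346 in endothelial cells and 3885 to 6038 in microglia, 2.43% to 4.22% and 2.58% to 4.01% of their mean in the neural libraries, so that without this pair the ranges overlapped. Of 14 tested, *Sox11*, *Nes* and *Neurod6* were higher in endothelial cells, beside 12.1% of all genes, and the 3 became 2 or 3 without 1 library and 1 or 2 without 1 brain. *Sox11* had 13516, 13265 and 12307 in endothelial cells against 4242, 4538 and 3186 in microglia (-1.72 ± 0.17, adjusted p = 4.1e-04). *Nes*, which growing vessels also express, had 10017, 12668 and 12447 in endothelial cells against 6598, 7221 and 5928 in microglia (-0.83 ± 0.15, adjusted p = 0.0071). *Neurod6*, a factor of cortical neurons, had 856, 407 and 406 in endothelial cells against 174, 176 and 68.0 in microglia, a call lost without any 1 of the 6 libraries (highest adjusted p 0.099). Of 10 fibroblast markers, 3 were tested and *Fbln1* was called, beside 12.1% of all genes, at 872, 2635 and 1519 in endothelial cells against 7.13, 41.5 and 20.1 in microglia (-6.29 ± 0.73, adjusted p = 8.4e-04). The endothelial count became 2 without Ec-343, and 1 marker was higher in microglia without Mi-346. Summed over the 10 markers, the level was 1107 to 2637 in endothelial cells and 41.5 to 120 in microglia. *Dcn*, *Lum* and *Col6a3* of the list were at 0 in all 6 libraries, and the part of fibroblasts was not tested. Of 8 platelet and megakaryocyte markers tested, 2 were higher in endothelial cells, *Vwf*, which endothelium makes, among them, and *Itgb3* and *Treml1* in microglia, beside the 12.1% and 13.3% of all genes. The endothelial 2 became 1 without Ec-340, Ec-346, Mi-340 or Mi-346. The call of *Itgb3* was lost without 4 of the 6 libraries left out in turn (highest adjusted p 0.14). Of 5 lymphocyte markers tested *Cd79b* was higher in microglia, beside 13.3% of all genes, at 1341, 1169 and 1774 in microglia and 37.2, 279.6 and 133 in endothelial cells. Its call was lost without Mi-346 (adjusted p = 0.052), while without Mi-343 the count became 2. *Cd3e* was at 0 in all 6 libraries.

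**Figure D5:**
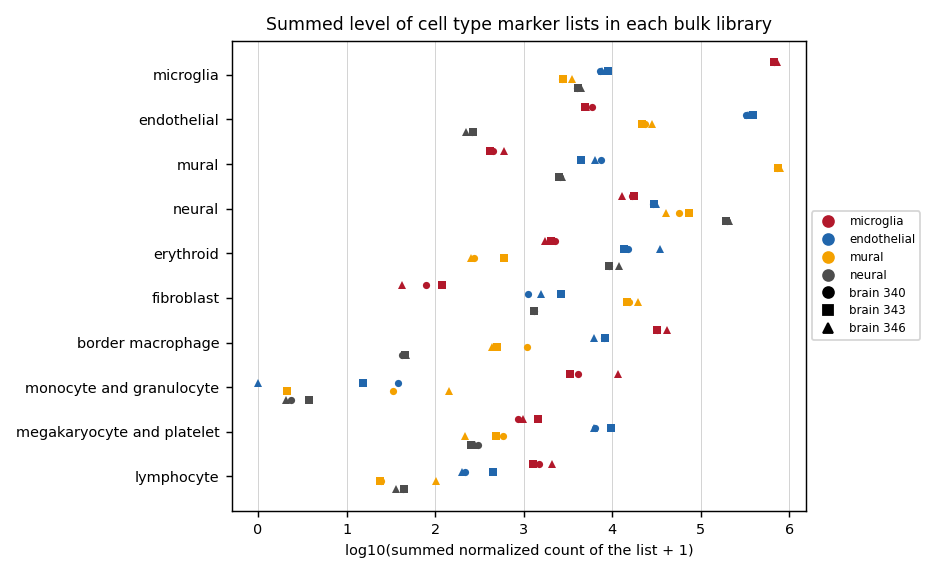
Summed normalized count of 10 marker lists in each of the 12 bulk libraries, as log10(sum + 1), coloured by population with a symbol per brain. Microglia markers sum to between 666267 and 731054 in the libraries Mi and to at most 8976 in the libraries Ec, while endothelial markers reach 392018 in Ec-343 and at most 5915 in a library of microglia.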

How the data were processed

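Bulk RNA-seq libraries of microglia and endothelial cells sorted from 3 E14.5 mouse brains were analysed. The authors deposited 1 table of normalized counts for 53465 genes in 12 libraries, a signal scale of gene counts divided by size factors. The submitters' processing notes name mm10, BWA 0.6.2-r126, STAR, featureCounts and DESeq2, without giving their roles, and the strand setting of counting is not given in the sources used here. Reads from overlapping or antisense genes may therefore be mixed. Every normalized count up to 100 reads (124030 values) was a whole multiple of the value of 1 read within 0.01, so whole reads were recovered for 100% of them. Of the genes, 53360 were found in GENCODE vM21, and 29641 were above 0 in the 6 libraries.

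Normalized counts of the 6 libraries were compared with limma 3.58.1 (R 4.3.3, with a variance trend) on log2(normalized count + 1), for genes with a mean of at least 10 over the 6 libraries. P-values are two-sided and Benjamini-Hochberg adjusted over 19151 genes, and a gene was called at an adjusted p under 0.05. The scripts were tested on simulated data. Genes at 0 reads in a population were compared with a floor of 3 reads per library, which covers counting error only. edgeR 4.0.16 and DESeq2 1.42.0 were run on the recovered reads as alternatives, and other pseudocounts, filters, normalizations, sample sets and left-out libraries were tried. Figures were drawn with matplotlib 3.10.9 (Python 3.11.15).

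Libraries with the same number come from the same brain, since the populations were collected together from each brain. Deviations from the group means correlated between the libraries of a brain at -0.012, -0.0045 and -0.064, and between those of different brains at -0.039 to 0.053. *Xist* had 22753 in Mi-340 and 8764 in Ec-340, and at most 31.5 in a library of the other brains. *Ddx3y* of the Y chromosome had at most 1.19 in the libraries of brain 340 and 3030 to 6574 in the others. Its bearing on the fits without 1 brain was not tested. Because the brains are shared, models with the brain as a block were fitted as an alternative, and blocked values are given where they change a call.

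The named genes are the 12 with the largest difference in each direction, 10 close to equal, the sort genes, and in each list the 2 to 5 members with the largest difference and those against its direction. Some of the members not called are named too, after their values were seen. The comparison and the lists were chosen with earlier results of these data known. Promoters are those of RefSeq for GRCm38.p6. Some genes of the lists are counted but not reported here by name.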

Additional observations from a re-analysis of the deposited data

How the results depend on the processing

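The counts of genes over 10-fold, 1413 in microglia and 1311 in endothelial cells, were 928 and 909 with a pseudocount of 10, and 889 and 762 without Mi-343 and Ec-343. Without a minimum fold they were 2551 and 2324, and over 2-fold 2347 and 2149. Leaving out 1 library or 1 brain gave 889 to 1423 genes in microglia and 762 to 1204 in endothelial cells. edgeR on whole reads gave 1113 and 1079, DESeq2 1333 and 1437, and limma on all 12 bulk libraries 1747 and 1572. With the brain as a block (pairing the libraries) the counts were 1239 and 1169, of which 1202 and 1143 were the genes above. The block changed the calls of *Smad3*, *Gata2*, *Klf2*, *Vegfb*, *Mcm3*, *Pcna* and *Ccnd2* and no other call among the 238 named genes tested. Over all alternatives those genes gave 4747 fits. In 4514 the direction and the call were kept, in 196 a call was lost, in 37 one was gained, and a called gene never changed sign. Sign changes of genes called in neither fit were not counted. The median difference over all genes moved between -0.04 with DESeq2 and 0.15 without a filter on low values. With 3 libraries per population and 1 read worth 1.19 to 1.77 normalized counts, low genes are the least certain. Without Mi-340 and Ec-340 the counts over 10-fold were 1241 and 960, and without Mi-346 and Ec-346 they were 1008 and 1017. Why they were lowest without Mi-343 and Ec-343 was not tested.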
